A study of Mus musculus with 6 samples.

Results

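The genes described here encode 5 membrane carriers for cystine, glutamate, glycine and related amino acids: Slc7a11, Slc1a1, Slc6a9, Slc38a4 and Slc25a38. They were taken by gene symbol from a deposited table of 1228 genes, and all 5 were found. RNA was sequenced from Bv2 cells, an immortalised mouse microglial line labelled wild type, in 3 control libraries and 3 libraries after oxygen and glucose deprivation with reperfusion (OGD/R). The deprived cells spent 30 min in nitrogen and then 2 h at 1% oxygen in medium lacking glucose and serum, followed by 24 h back in standard medium with serum. The protocol attached to all samples also mentions an infection 72 h before, without naming the agent or the samples it applied to, and does not describe the handling of control cells. An infection of only 1 group cannot be told apart from OGD/R. The labels name no separate cultures, so the p-values below measure the spread between these libraries, which may be technical.

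Levels are FPKM, the fragments counted for a gene scaled to its length and to the size of the library, which allows levels of different genes to be set side by side. The table is not a whole transcriptome. The smallest log2 ratio of group means was 1.03 among its higher genes and -0.97 among its lower genes, so its rows appear to be genes picked for about this difference in these same libraries. In 94.9% of its rows the control and OGD/R values did not overlap, and 97.3% of the 852 genes tested passed the threshold. A carrier that passes is therefore like nearly every other row, and what can be read here is the direction, level and size of its change. Of 18 microglial markers 4 were in the table, with summed levels of 9.72 to 11.6 FPKM in control cells and 20.0 to 24.8 FPKM after OGD/R. They were Cx3cr1, P2ry12, P2ry6 and Mef2c. Most of the sum was Mef2c, at 8.44 to 9.92 FPKM in control and 15.55 to 20.3 FPKM in OGD/R. Cx3cr1, P2ry12 and P2ry6 were at 0.22 to 0.62 FPKM in control and 1.04 to 2.05 FPKM in OGD/R. Defining markers such as Aif1, Itgam and Csf1r were not analysed here. The single neuronal marker in the table, Tubb3, was at 0.56 to 1.17 FPKM in control and 0 to 0.37 FPKM in OGD/R. The single endothelial marker, Vwf, was at 3.22 to 4.40 and 1.10 to 1.74 FPKM, and the single oligodendrocyte precursor marker, Cspg4, was at most 0.09 FPKM. Listed astrocyte, lymphocyte and granulocyte markers were not among the rows. The part of other cells in the carrier values was not tested.

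Amino acid carriers set how much substrate a cell has for glutathione, for heme and for signalling by glutamate and glycine. Slc7a11 encodes xCT, the light chain of system xc-, which brings cystine into the cell in exchange for glutamate and so supplies the cysteine of glutathione; in microglia the exchanger is also known as a route of glutamate release. Slc1a1 encodes EAAT3 (EAAC1), a sodium-driven carrier that takes up glutamate and also cysteine. Slc6a9 encodes GlyT1, the sodium- and chloride-driven glycine carrier, and Slc25a38 a mitochondrial inner membrane carrier that supplies glycine for the first step of heme synthesis. Slc38a4 encodes SNAT4, a sodium-coupled carrier for small neutral amino acids of the system A type.

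The carriers did not move together. Slc7a11 rose about 2-fold after OGD/R, while the glycine carriers Slc6a9 and Slc25a38 fell to about 0.38 and 0.40 of their control levels. Slc38a4 was higher and Slc1a1 lower, both at levels under 1 FPKM that rest on few counted fragments. Of the 3 carriers with a mean of at least 1 FPKM, which were tested, 1 rose and 2 fell, against 46.6% of all tested genes called higher and 50.7% called lower. The group values did not overlap in 5 of 5 carriers, against 94.9% of all rows of the table, so this does not set the carriers apart.

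**Figure D1:**
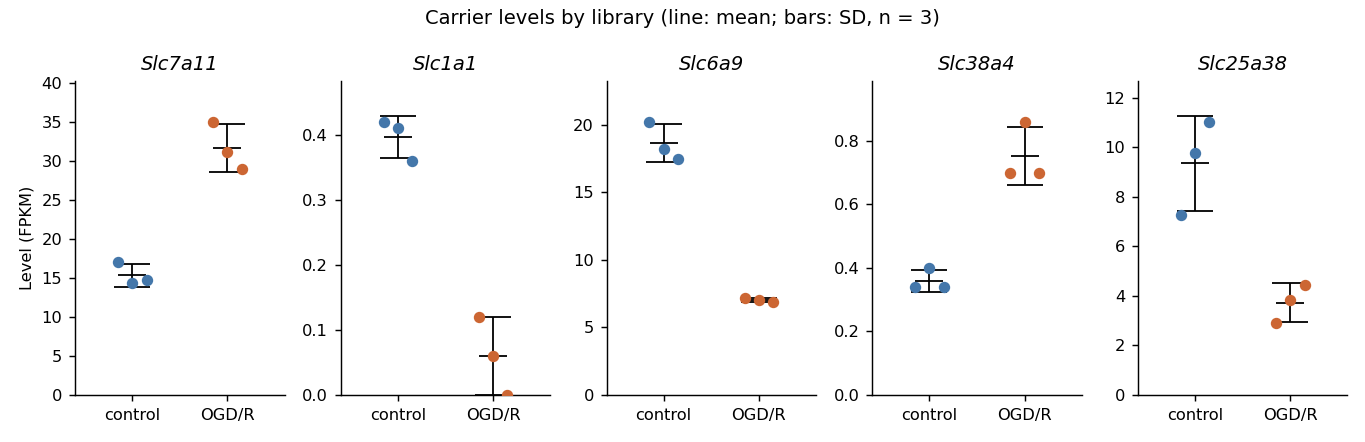
Level of each carrier in FPKM (vertical axes from 0, a scale of its own per gene) in the 3 control and 3 OGD/R libraries, with the mean and SD. Slc7a11 and Slc38a4 lie higher after OGD/R and the other 3 carriers lower, with no overlap between groups in any panel.

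Slc7a11, the cystine and glutamate exchanger, was at 16.98, 14.30 and 14.71 FPKM in control libraries 1, 2 and 3 and at 34.99, 31.17 and 28.93 FPKM in OGD/R libraries 1, 2 and 3. The lowest OGD/R library was thus well above the highest control library. The mean went from 15.3 ± 1.44 to 31.7 ± 3.06 FPKM (SD, n = 3), a ratio of 2.07. On the log2(FPKM + 1) scale the change was 1.00 ± 0.12 (SE; limma adjusted p = 0.00031). The rise is near the small end of the table: 584 of its 605 higher genes had a larger ratio. Slc7a11 (ENSMUSG00000027737) occupies bases 49892526 to 50443614 of chromosome 3 on GRCm38, minus strand.

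Slc7a11 is a textbook target of 2 transcription factors: Atf4, which binds amino acid response elements when amino acids run short or proteins misfold, and Nrf2, which binds antioxidant response elements. The bases before its transcript start are printed because 14 of 55 listed genes of the Atf4 response moved the opposite way in these libraries. The rest of that list was not in the table, so the response as a whole cannot be read. The stretch before the RefSeq start of Slc7a11, and that of the falling carrier Slc25a38, were taken from RefSeq on GRCm38.p6, each on the strand of its gene and without annotated exon bases. Capitals mark matches to the core letters TGATGNAA (amino acid response element) or TGACNNNGC (antioxidant response element) on either strand. The Slc7a11 stretch of 249 bases is chr3:50443615-50443863 (minus strand) and the Slc25a38 stretch of 242 bases is chr9:120110132-120110373 (plus strand).
Slc7a11: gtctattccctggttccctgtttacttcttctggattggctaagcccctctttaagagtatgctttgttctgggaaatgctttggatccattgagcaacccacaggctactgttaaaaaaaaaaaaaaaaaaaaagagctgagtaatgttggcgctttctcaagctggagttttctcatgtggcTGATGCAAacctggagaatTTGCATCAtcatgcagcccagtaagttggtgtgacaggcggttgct
Slc25a38: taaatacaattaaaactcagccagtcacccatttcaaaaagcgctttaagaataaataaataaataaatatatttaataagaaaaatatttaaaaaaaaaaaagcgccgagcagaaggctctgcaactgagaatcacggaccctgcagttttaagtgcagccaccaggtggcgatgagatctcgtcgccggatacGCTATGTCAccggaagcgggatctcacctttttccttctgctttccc

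In the Slc7a11 stretch the first match, TGATGCAA, begins 66 bases upstream of the RefSeq start, and the second, TTGCATCA, begins 47 bases upstream and reads as the core on the opposite strand. Of 32851 RefSeq windows of 250 bases before a start, 3.45% held the amino acid response core at least once and 0.0396% (13 windows) held it more than once. All 5 carriers had an entry, with 9 windows between them, and no window of the other 4 carriers held these letters. The antioxidant core occurred in the Slc25a38 stretch as GCTATGTCA, 55 bases upstream, and in 2 of the 3 Slc6a9 windows, as TGACGCTGC and TGACTTGGC, against 10.2% of all windows. Unlike the printed stretches, these 2 Slc6a9 windows include annotated exon bases, 157 and 28 of their 250. No match to one core overlapped a match to the other. A match is a run of letters, not a measured binding site.

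The list of Atf4 and amino acid response genes, which does not include Slc7a11, held 55 genes, of which 14 were in the table and tested. All 14 fell, where 50.7% of all tested genes were called lower, with a median log2 fold change of -1.55 against -0.68 over all tested genes. The latter median mixes genes that rose and genes that fell, so it is not a typical size of fall. The list was drawn up with earlier results of these data known, so its direction is not independent evidence. Ddit3, the stress-induced transcription factor CHOP, was at 100.29, 189.53 and 198.77 FPKM in control and at 4.43, 4.62 and 10.91 FPKM in OGD/R (log2 fold change -4.46 ± 0.39, limma adjusted p = 0.00013). The control library with the lowest Ddit3, replicate 1, was the one with the highest Slc7a11. Other genes that rose after OGD/R were mixed in that library: Gsr and Mgst2 were at their lowest control value there and Glul at its highest. Over all tested genes the deviations of control library 1 went with those of OGD/R libraries 1 and 2 (correlations 0.428 and 0.451). They went against those of OGD/R library 3 (-0.628), so this library does not set Ddit3 and Slc7a11 apart from other genes. A link between Ddit3 and Slc7a11 was not tested. Ppp1r15a, a phosphatase subunit that restarts translation after stress, and Trib3, a pseudokinase induced by Atf4 and CHOP, fell with log2 fold changes of -2.70 and -2.05. The smallest fall of the list was that of Pycr1, an enzyme of proline synthesis, at -0.63. Nupr1, a stress-induced chromatin protein, was the 1 listed gene whose groups overlapped, at 5.71 to 20.18 FPKM in control and 2.03 to 8.31 FPKM in OGD/R (this gene and Pycr1 were singled out once their values were known). Of the 10 listed genes with a RefSeq window, 4 held the amino acid response core in it, namely Atf3, Nupr1, Pycr1 and Pck2. Since all 14 listed genes fell, with or without the core, direction says nothing about it. This count is per gene, and some genes have more than 1 window, unlike the share of windows given above.

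Genes of glutathione handling, downstream of cystine uptake, were few in the table, and those present were higher. Of 46 genes of glutathione synthesis and use 3 were present, and both tested ones rose (median log2 fold change 1.27). Of all tested genes 46.6% were called higher. The median of all tested genes was -0.68, which mixes rises and falls and is not a typical size of rise. With 2 genes tested, the direction of the pathway as a whole cannot be read. Gsr, the reductase that regenerates glutathione, was at 22.03, 30.56 and 28.80 FPKM in control and 71.94, 67.71 and 85.36 FPKM in OGD/R (log2 fold change 1.44 ± 0.16, limma adjusted p = 0.00025). Mgst2, a microsomal glutathione transferase, had means of 4.96 ± 2.00 FPKM in control and 11.4 ± 2.23 FPKM in OGD/R (SD, n = 3) and rose with a log2 fold change of 1.10 (limma adjusted p = 0.0070). Ggt7, of the gamma-glutamyltransferase family, was below the expression minimum at 0.04 to 0.12 and 0.22 to 0.35 FPKM. Of 30 Nrf2 targets, a list that also holds Gsr, 2 were in the table, and they moved apart. Gsr rose and Sqstm1, the autophagy receptor p62, fell from 278 ± 9.63 to 82.3 ± 3.16 FPKM (log2 fold change -1.75, limma adjusted p = 4.4e-05).

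**Figure D2:**
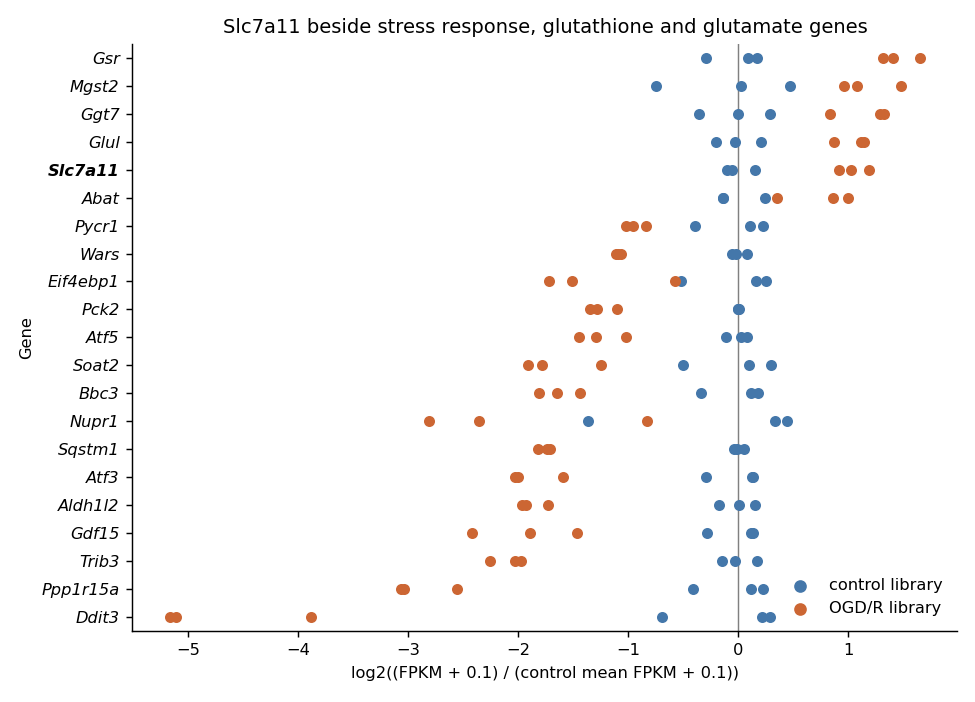
Log2 of FPKM + 0.1 in each library relative to the control mean for Slc7a11 (bold) and the genes of the Atf4, Nrf2, glutathione and glutamate lists that are in the table. Slc7a11 lies with Gsr, Mgst2, Ggt7, Glul and Abat on the right, while all 14 genes of the Atf4 list and Sqstm1 lie on the left.

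Glutamate is the other substrate of system xc-, and 2 of 52 genes of glutamate metabolism and receptors were in the table. Glul, glutamine synthetase, which turns glutamate into glutamine, was at 13.26 to 17.63 FPKM in control and 33.88, 33.16 and 28.03 FPKM in OGD/R. It rose with a log2 fold change of 1.01 ± 0.14 (limma adjusted p = 0.00056), a level and size close to those of Slc7a11. Abat, the GABA transaminase, was listed at 0, 0 and 0.03 FPKM in control and at 0.10, 0.12 and 0.04 FPKM in OGD/R, below the expression minimum.

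Slc1a1, the glutamate and cysteine carrier, was low throughout, at 0.42, 0.41 and 0.36 FPKM in control libraries 1 to 3 and 0.12, 0.06 and 0 FPKM in OGD/R libraries 1 to 3. All 3 OGD/R values were below the lowest control value, and the third was listed at 0. Stepwise spacing of low FPKM values allowed the counted units behind them to be recovered, and Slc1a1 rested on 27, 28 and 23 units in control and 8, 4 and 0 units in OGD/R. The ratio of the summed units was 0.144 of control, allowing for library size (exact 95% interval 0.0713 to 0.266, covering counting error only). The 0 in OGD/R library 3 allows up to 3.69 units, or 0.0516 FPKM (upper end of the exact 95% Poisson interval). Slc1a1 did not reach a mean of 1 FPKM and had no test in the main analysis. With no filter on low values its change on the log2(FPKM + 1) scale was -0.40 ± 0.06 (SE; limma adjusted p = 0.00089), where 96.0% of 1228 genes passed, and limma-voom on the recovered units gave -3.42 ± 0.78 (adjusted p = 0.0031), where 98.0% passed. The exons of Slc1a1, 8257 nt on chromosome 19 from 28835049 to 28913960 on the plus strand (ENSMUSG00000024935), share 2631 nt with 4430402I18Rik on the opposite strand. That gene was at 0.40 to 0.56 FPKM in control and 0.06 to 0.25 FPKM in OGD/R. The sources used here do not say whether reads were counted by strand, so reads of these 2 genes cannot be told apart and the Slc1a1 values are uncertain.

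Slc38a4, the neutral amino acid carrier, was as low as Slc1a1 in control cells but went the other way. It was at 0.34, 0.40 and 0.34 FPKM in control libraries 1 to 3 and 0.70, 0.86 and 0.70 FPKM in OGD/R libraries 1 to 3, so that the groups were apart with each value under 1 FPKM. These values rested on 11, 14 and 11 units in control and 24, 31 and 26 units in OGD/R. The ratio of the summed units was 2.11 (exact 95% interval 1.41 to 3.21, counting error only). Slc38a4 had no test in the main analysis either. With no filter its change was 0.37 ± 0.07 on the log2(FPKM + 1) scale (limma adjusted p = 0.0032), and voom on the units gave 1.04 ± 0.28 (adjusted p = 0.0069). The gene, ENSMUSG00000022464, lies on chromosome 15 from 96994820 to 97055956 on the minus strand.

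**Figure D3:**
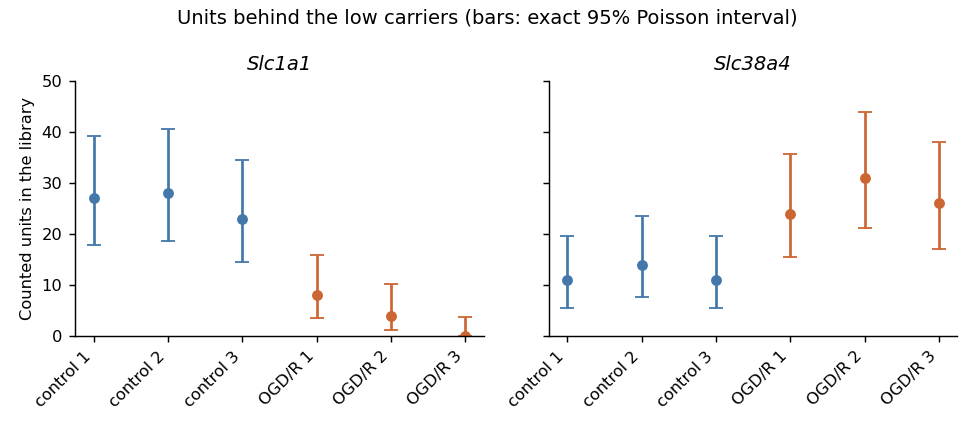
Counted units behind Slc1a1 and Slc38a4 in each library, with exact 95% Poisson intervals. Slc1a1 goes from 23 to 28 units in control to at most 8 in OGD/R libraries, and Slc38a4 goes from 11 to 14 units to 24 to 31.

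Slc6a9, the plasma membrane glycine carrier, was the most abundant of the 5 in control cells, at 20.22, 18.24 and 17.49 FPKM in libraries 1 to 3. After OGD/R it was at 7.19, 7.01 and 6.91 FPKM, close to each other and far below every control value. The mean fell from 18.7 ± 1.41 to 7.04 ± 0.142 FPKM (SD, n = 3; log2 fold change -1.29 ± 0.10 SE, limma adjusted p = 9.9e-05). Slc6a9, ENSMUSG00000028542, lies on chromosome 4 from 117834506 to 117875198 on the plus strand. Of its 5141 nt of exons, 1429 nt are shared with Ccdc24 and 511 nt with Gm17114, both on the opposite strand and both in the table, and 46 nt with B4galt2, which was not analysed here. Ccdc24 was at 6.51 to 6.70 FPKM in control and 2.11 to 2.81 FPKM in OGD/R, and Gm17114 at 5.64 to 8.42 and 2.03 to 2.68 FPKM. All 3 were lower in OGD/R, and without strand their shared reads cannot be told apart.

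Slc25a38, the mitochondrial glycine carrier, was at 7.27, 9.76 and 11.03 FPKM in control libraries 1 to 3 and 2.90, 3.83 and 4.45 FPKM in OGD/R libraries 1 to 3. Replicate 1 was the lowest of each group, and the highest OGD/R value stayed below the lowest control value. The mean fell from 9.35 ± 1.91 to 3.73 ± 0.780 FPKM (SD, n = 3; log2 fold change -1.13 ± 0.19 SE, limma adjusted p = 0.0013). Slc25a38, ENSMUSG00000032519, lies on chromosome 9 from 120110374 to 120124504 on the plus strand. Of 53 other mitochondrial carriers 1 was in the table, Slc25a29, a carrier of basic amino acids, at 0.60, 0.93 and 0.86 FPKM in control and 0.29, 0.18 and 0.49 FPKM in OGD/R, below the expression minimum. None of 31 genes of heme synthesis and breakdown, the pathway that Slc25a38 feeds, was among the rows. Of 30 genes of glycine, serine and folate metabolism 1 was, the mitochondrial folate enzyme Aldh1l2, which is also on the Atf4 list. It fell from 34.8 ± 3.91 to 9.43 ± 0.859 FPKM (log2 fold change -1.78, limma adjusted p = 7.9e-05).

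The order of the carriers changed between conditions. In control cells it was Slc6a9, Slc7a11, Slc25a38, Slc1a1 and Slc38a4, and each was above the next in every library except Slc1a1 and Slc38a4, whose ranges of 0.36 to 0.42 and 0.34 to 0.40 FPKM overlapped. After OGD/R it was Slc7a11, Slc6a9, Slc25a38, Slc38a4 and Slc1a1, with no overlap between neighbours. Since reads of opposite-strand genes may be part of the Slc6a9 values, its place above Slc7a11 in control cells is uncertain. The ratio of Slc7a11 to Slc6a9 lay between 0.784 and 0.841 in control cells and between 4.19 and 4.87 after OGD/R. Because a ratio within a library shows only unequal change, the 10 pairs of carriers were compared by the difference between their log2(FPKM + 1) changes, in an exact permutation test (two-sided), where 3 against 3 libraries cannot give less than p = 0.1. Slc7a11 minus Slc6a9 differed by 2.29 and Slc7a11 minus Slc25a38 by 2.13, each at that smallest exact p of 0.1 (0.111 adjusted over the 10 pairs). The rows appear picked for a difference between the groups, so a higher and a lower carrier were bound to differ. For such pairs the test adds nothing to their directions. The 2 glycine carriers differed by -0.16, Slc6a9 minus Slc25a38 (exact p = 0.6, adjusted 0.6), which was within the spread of the libraries. The other 7 pairs also stood at 0.1, but those with Slc1a1 or Slc38a4 depend on the pseudocount. With 0.01 in place of 1, Slc7a11 and Slc38a4 differed by 0.005 (exact p = 1, adjusted 1).

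Most other amino acid carriers were not in the table: none of 50 listed plasma membrane carriers for amino acids was among its rows. Slc3a2, the heavy chain that pairs with xCT, is one of these and was not analysed here. The table held 20 symbols starting with Slc, the 5 carriers included, and by their group means 5 of them were higher after OGD/R and 15 lower. Of the 11 that were tested 2 rose and 9 fell, where 46.6% of all tested genes were called higher and 50.7% lower. Their median log2 fold change was -1.13 against -0.68 over all tested genes. Both medians mix rises and falls, so they reflect the split of directions and not a typical size. On the log2(FPKM + 1) scale Slc7a11 had the largest rise among the 11, and Slc20a1, a sodium-driven phosphate carrier, the largest fall, from 130 ± 6.97 to 38.2 ± 1.46 FPKM (log2 fold change -1.74, limma adjusted p = 4.5e-05). By the ratio of group means 2 lower-level genes of the 11 changed more: Slc8a1, a sodium and calcium exchanger, with a ratio of 2.29 against 2.07 for Slc7a11, and Slc30a1, a zinc exporter, with a mean 3.72 times higher in control against 3.41 times for Slc20a1.

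**Figure D4:**
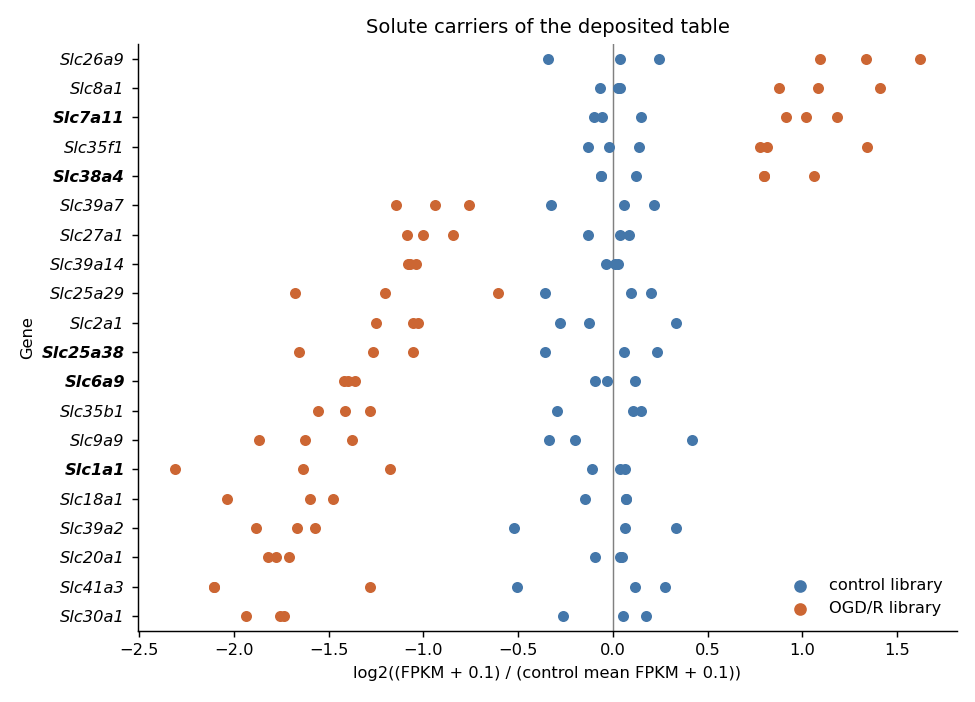
Log2 of FPKM + 0.1 in each library relative to the control mean for the 20 solute carrier genes of the table, with the 5 amino acid carriers in bold. Slc7a11 and Slc38a4 are among the 5 genes on the right, and Slc25a38, Slc6a9 and Slc1a1 among the 15 on the left.

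The genes whose pattern over the 6 libraries was most like that of each carrier were found by the root mean square difference between log2(FPKM + 1) profiles, each centred on its own mean. Only genes with a mean of at least 1 FPKM were candidates, without Gm, Rik and pseudogene symbols. For Slc7a11 they were Il18rap, an accessory chain of the interleukin-18 receptor, at a difference of 0.0319, and Brca1, a DNA repair gene, at 0.0339. Il18rap was at 2.20, 1.74 and 1.71 FPKM in control and 5.11, 4.43 and 4.22 FPKM in OGD/R, with replicate 1 highest in each group as for Slc7a11. For Slc6a9 they were Jund, a subunit of the AP-1 transcription factor, at 0.0740, and Trabd at 0.0902. For Slc25a38 they were Erlin1, an endoplasmic reticulum lipid raft protein, at 0.0889, and Tmem39a at 0.0900. Erlin1 was at 24.27, 32.71 and 36.42 FPKM in control and 12.20, 12.59 and 14.56 FPKM in OGD/R, and like Slc25a38 had its lowest value of each group in replicate 1. The nearest candidates to Slc1a1 were P2ry13 and Wdr45, at 0.122 and 0.133, and to Slc38a4 Pdzrn3 and Klhl15, at 0.154 and 0.178. These 2 carriers are themselves under the 1 FPKM minimum. A pseudocount of 1 makes their changes small (-0.40 and 0.37), so their larger distances cannot be read as a trait of their patterns. In a table picked for a difference between the groups many profiles are alike.

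Length and base composition moved with direction in the table, so both are given for the carriers. Higher protein-coding genes had a median of 4822 nt of exons and 47.4% GC in the longest transcript, and lower ones 3448 nt and 53.1%. Slc7a11 had 13922 nt and 40.7% GC, and Slc38a4 4261 nt and 43.4%. Among the lower carriers Slc6a9 had 5141 nt and 57.0%, Slc25a38 2747 nt and 55.9%, and Slc1a1 8257 nt and 48.0%. The part of length and GC content in these changes was not tested. In RNA from whole cultures, fewer cells expressing a carrier and less of its RNA per cell cannot be told apart.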

How the data were processed

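The deposited values are FPKM to 2 decimals in 1 table, made by the authors on GRCm38 according to the submitters' processing notes; no source used here names the aligner, the counter or the annotation. Exons and coordinates came from GENCODE M21 (GRCm38), which placed 1227 of 1228 gene IDs. Low FPKM values were whole multiples of 1 unit (within rounding error plus 0.03 units, for values under 15 units) at library sizes of 7614000 to 8242000 units in control and 8016000 to 8654000 in OGD/R, with 97.3% to 99.6% of values whole, and a unit may or may not be a read pair. Genes with a mean of at least 1 FPKM (852) were tested on log2(FPKM + 1), which understates changes of low genes, with limma 3.58.1 in R 4.3.3 (a 1-factor model of group, trended eBayes, two-sided p, Benjamini-Hochberg over all tested genes, threshold 0.05). The fit was tested on simulated data. Tables and figures used Python 3.11.15, pandas 2.3.3, numpy 2.4.6, scipy 1.17.1 and matplotlib 3.10.9.

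The carriers and the 8 gene lists were chosen with earlier results of these data known. Named genes are the carriers, all members of lists with at most 5 genes in the table, the 3 largest rises and falls of longer lists, the 2 nearest patterns per carrier and the Slc symbols with the largest rise and fall. Alternatives covered pseudocount, filter, scaling, eBayes settings, a replicate block, voom on recovered units and each library left out; voom with no filter was added after seeing the data.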

Additional observations from a re-analysis of the deposited data

How the results depend on the processing

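Slc7a11, Slc6a9 and Slc25a38 kept their direction and side of the threshold under all 17 alternatives each, with log2 fold changes of 0.93 to 1.21, -1.40 to -1.17 and -1.33 to -0.996. Without any 1 replicate the ranges were 0.93 to 1.07, -1.33 to -1.23 and -1.28 to -0.996. Replicate numbers did not pair the libraries (correlations of deviations 0.428, -0.349 and 0.375 for equal numbers). Deviations were shared between the groups in another way. Those of control 1 went with OGD/R 1 and 2 (0.428 and 0.451) and against OGD/R 3 (-0.628). Those of controls 2 and 3 went with OGD/R 3 (0.479 and 0.375). Deviations from a group mean cancel within the group, so these correlations depend on each other and are not separate observations. The source of this spread was not tested. With the replicate block the log2 fold changes were 1.00, -1.29 and -1.13 and 835 genes of the table passed, against 829. The low carriers depended on the pseudocount and the filter. For Slc1a1 the change at pseudocounts of 1, 0.1 and 0.01 was -0.40, -1.71 and -3.17, and -0.40 and called with no filter and -3.42 with voom and no filter. For Slc38a4 it was 0.37, 0.89 and 1.04, and 0.37 and called with no filter and 1.04 with voom and no filter. Carriers called higher were 1, and 2 in both fits with no filter; carriers called lower were 2, and 3 in those fits. With no filter or with voom and no filter, 1 mitochondrial carrier was called lower and 2 glutamate genes higher. A minimum of 5 FPKM left 423 genes tested and 409 called. Slc1a1 minus Slc6a9 was 0.89 with a pseudocount of 1 and reversed to -0.31 with 0.1 and -1.77 with 0.01, and Slc1a1 minus Slc25a38 was 0.73 and reversed to -0.40 and -1.85, since a pseudocount of 1 is larger than the Slc1a1 level itself. The median change of all tested genes moved from -0.68 to -0.98 with a pseudocount of 0.1, to -0.12 with no filter, where 1228 genes were tested, and by under 0.1 with either scaling. At 4 to 31 units where detected, the sizes of the Slc1a1 and Slc38a4 changes are limited by counting.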
